A study of Mus musculus with 2 samples.

Results

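The 9 genes described here encode components and regulators of complement: C3, Hc (which encodes C5), C4b, C2, Cfb, Serping1, Cfi, Cd55 and Cd59a. They were taken as a list of names, and every non-control probe whose RefSeq accession belongs to one of them was used. This gave 11 of the 55681 non-control probes of the array, and 9 of the 20660 genes that could be named. C3 and Serping1 had 2 probes each and the other members 1. Expression in lung epithelium of mice was read from Agilent 1-colour oligonucleotide arrays, with a single array hybridised per genotype, labelled Mob1DKO or wild type (WT). Both groups were C57BL/6 mice aged 10 weeks. Mob1DKO is not expanded in the labels and is taken here to mean a double knockout of Mob1a and Mob1b. These genes encode adaptors of the Hippo pathway that help switch on LATS kinases. The labels used here give neither the promoter that drives a deletion, nor the sex or number of the animals behind each RNA sample, nor how the epithelial cells were isolated. The comparison asks how expression in these cells differs between the mice.

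Complement is a cascade of proteins that tags microbes and damaged cells for uptake, attracts leukocytes and punctures membranes. The classical and lectin routes split C4 and C2 into a C3-cleaving enzyme, the alternative route builds another from C3 and factor B, and C5 starts the membrane attack complex. Most plasma complement comes from the liver, but alveolar type 2 cells and airway epithelium also make components, and host cells carry regulators such as CD55 and CD59 that stop the cascade on their own surface.

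All 9 genes were detected on both arrays, meaning that the scanner software marked most spots of the probe as well above background, and none differed by 2-fold between them. Levels below are log2 of the processed signal minus the array's own 75th percentile, so that 0 is that percentile. Every difference is that of Mob1DKO minus WT. A gene was called when its difference reached 1 on the log2 scale and it was detected on the brighter array. By this rule 0 of 9 genes were called, where 6.70% of 15099 genes detected on at least 1 array and 2.68% of 13866 genes detected on both arrays were called. Of the 11 member probes, 0 were called, against 9.51% of 33502 probes detected on at least 1 array. At a 1.5-fold threshold 0 of 9 genes were called as well, against 9.93% of the genes measured on both arrays. With 9 genes and shares this low, a count of 0 does not set the members apart from other genes. Their differences ran from −0.17 to 0.48 with a median of 0.03, and 5 lay above 0 and 4 below. Over all genes measured on both arrays the median was 0.01, with a middle range (25th to 75th percentile) from −0.18 to 0.19. The median size of a difference, whatever its sign, was 0.13 for the members and 0.19 for all these genes.

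No test was run, because 1 array per group leaves no estimate of the spread between animals. The error given is technical: 399 probes were printed at 10 spots each, and the SD of a difference between single spots was taken from them by level. It was 0.051 above a level of 4, 0.066 from 2 to 4, 0.18 from −2 to 0 and 0.49 from −4 to −2. The targeted genes and sex-linked genes were checked on the same arrays. Mob1b had −2.98 in Mob1DKO against −0.98 in WT cells, 4.0-fold lower, and its second probe was 6.48-fold lower. Mob1a differed by 0.07 at a faint level, on a probe whose place relative to any deleted part is not known here. Xist was 4.90-fold lower and the Y-linked Ddx3y at least 22.7-fold higher in Mob1DKO cells, so that the sex of the animals and the genotype cannot be told apart in any value below. Xist was still detected on the Mob1DKO array, at −1.475 against 0.82 on the WT array. The Mob1DKO array thus held both Xist and Y-linked signal. The technical error covers spots within an array and holds no error of labelling, hybridisation or scaling. A difference beyond it is one between these arrays, and not yet one between RNA preparations or genotypes. In bulk RNA, fewer cells of a type and less RNA per cell cannot be told apart.

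**Figure D1:**
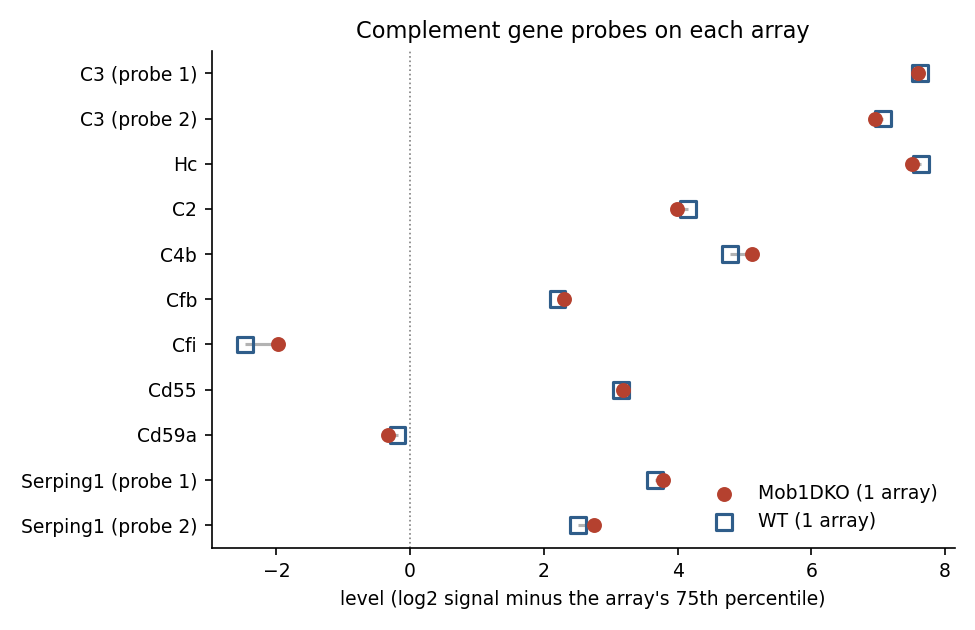
Level of each of the 11 complement probes for Mob1DKO (filled circles) and WT (open squares), as log2 signal minus the array's 75th percentile, with 1 array per group. The 2 symbols lie close together in each row, and the widest gap is that of Cfi, at −1.98 in Mob1DKO against −2.46 in WT cells. Distances between rows compare different probes and carry no meaning.

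The component on which all routes meet was nearly level. C3, cleaved to the opsonin C3b and the anaphylatoxin C3a, had a level of 7.59 in Mob1DKO against 7.62 in WT cells, differing by −0.03. Before scaling, the signals were 56156 in Mob1DKO against 30545 in WT cells. This gap follows the brightness of the arrays, whose 75th percentiles were 291 in Mob1DKO against 155 in WT cells. The C3 probe was printed at 10 spots, so its error over spots could be read directly. Spot levels ran from 7.52 to 7.63 with a median of 7.59 in Mob1DKO, and from 7.54 to 7.68 with a median of 7.63 on the WT array. The spots of the arrays overlapped, with 9 of 10 Mob1DKO spots inside the WT range and 5 of 10 WT spots inside the Mob1DKO range. Their mean levels were 7.59 ± 0.034 for Mob1DKO and 7.62 ± 0.042 for WT (SD over 10 spots), and the difference of the means was −0.03 with a standard error of 0.017 over spots. A second, single-spot C3 probe had 6.95 in Mob1DKO against 7.08 in WT cells, differing by −0.13 against a technical SD of 0.051. Both probes thus lay within 1.1-fold of equality, and the second beyond its spot error.

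**Figure D2:**
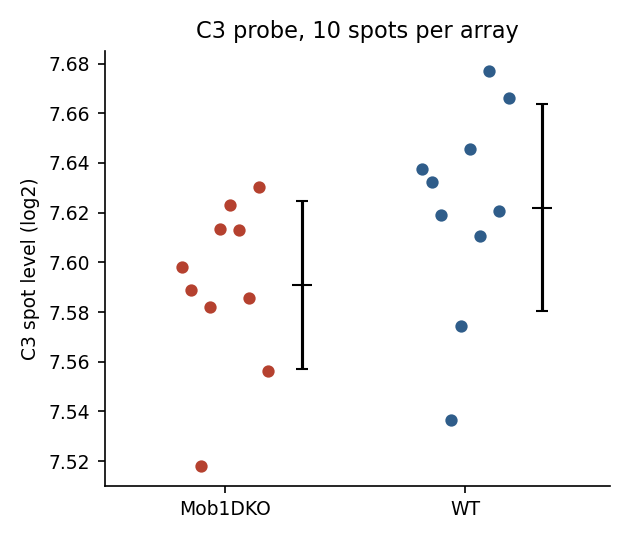
Level of the 10 spots of the C3 probe for Mob1DKO and WT, in log2 units, with the mean and SD over spots as a bar to the right of each group. The spots are technical repeats of 1 RNA sample per group, and 9 of 10 Mob1DKO spots lie within the range of the WT spots, from 7.54 to 7.68, and 5 of 10 WT spots within the range of the Mob1DKO spots.

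Hc encodes C5, whose fragments are the anaphylatoxin C5a and C5b, the base of the membrane attack complex. Its probe had a signal of 53017 in Mob1DKO against 30940.4 in WT cells. Scaled, the levels were 7.51 in Mob1DKO against 7.64 in WT cells, a difference of −0.13 that was 2.61 times the technical SD. Differences of this size were common among bright genes: 799 of 1479 genes above a level of 4 (54.0%) differed by at least as much.

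Of the classical and lectin route genes, C4b was higher on the Mob1DKO array than on the WT array, though by less than 2-fold, and C2 was slightly lower. C4b encodes C4, which binds covalently to surfaces and holds C2 there. It had a signal of 10083 in Mob1DKO against 4286 in WT cells, and levels of 5.11 in Mob1DKO against 4.79 in WT cells. The difference of 0.32, or 1.25-fold, was 6.36 times the technical SD, the highest such multiple among the 9 members. Among the 1479 genes above a level of 4, 285 (19.3%) differed by at least as much in either direction. C2, the protease that joins C4b in the C3-cleaving enzyme, had 3.98 in Mob1DKO against 4.15 in WT cells, differing by −0.17 at a technical SD of 0.051. Of the same bright genes, 45.7% differed by at least as much as C2. C4a, a close relative of C4b, was not matched to any probe here, and whether its transcripts reach the C4b probe was not tested.

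Factor B, the alternative route's counterpart of C2, is encoded by Cfb. Its levels were 2.30 in Mob1DKO against 2.20 in WT cells, differing by 0.09 at a technical SD of 0.066. Of 2908 genes with a level between 2 and 4, 65.0% differed by at least as much. C2, Cfb and C4b lie together on chromosome 17 in the class III region of the major histocompatibility complex, where C2 and Cfb are direct neighbours. The differences of this adjacent pair, −0.17 and 0.09, had opposite signs.

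The regulators gave small differences of both signs. Serping1 encodes the C1 inhibitor, a serpin that inactivates the C1r and C1s proteases. Its brighter probe had 3.78 in Mob1DKO against 3.66 in WT cells (difference 0.12), and its other probe 2.76 in Mob1DKO against 2.52 in WT cells (difference 0.24). Both probes were higher on the Mob1DKO array by more than their technical SD of 0.066 and by less than 1.2-fold. In the same band of 2908 genes, 55.6% differed by at least as much as the brighter probe.

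Cfi encodes factor I, the plasma protease that cuts C3b and C4b. It had the largest difference of the 9 members, at faint signals of 73.7 in Mob1DKO against 28.1 in WT cells. Its levels of −1.98 in Mob1DKO against −2.46 in WT cells differed by 0.48, or 1.40-fold, at a technical SD of 0.49. Of 1923 genes with a level between −4 and −2, 30.4% differed by at least as much. With a model-based background correction in place of the processed signal, the difference was −0.23. That setting by construction moves faint genes down on the Mob1DKO array, so its sign carries little weight. Relative to the median of all genes, Cfi was above 0 in 13 of 14 settings, the main one included. These settings are not independent checks. No direction is given for Cfi, because its difference did not exceed the technical SD.

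The membrane-bound regulators were close to level. Cd55, or decay-accelerating factor, which takes apart C3-cleaving enzymes, had 3.18 in Mob1DKO against 3.15 in WT cells, differing by 0.03 within its technical SD of 0.066. Cd59a encodes the anchored protein that blocks assembly of the membrane attack complex. It had −0.33 in Mob1DKO against −0.19 in WT cells, differing by −0.14 within its technical SD of 0.18. Differences at least as large were found for 87.6% of the genes of like level beside Cd55 and 68.4% beside Cd59a. Mice carry a second copy of each gene, Cd55b and Cd59b, and cross-reaction between copies was not tested. The brighter Cd55b probe had 2.35 in Mob1DKO against 2.63 in WT cells (−0.28), while its dimmer probe differed by 0.32. Cd59b was detected on neither array.

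**Figure D3:**
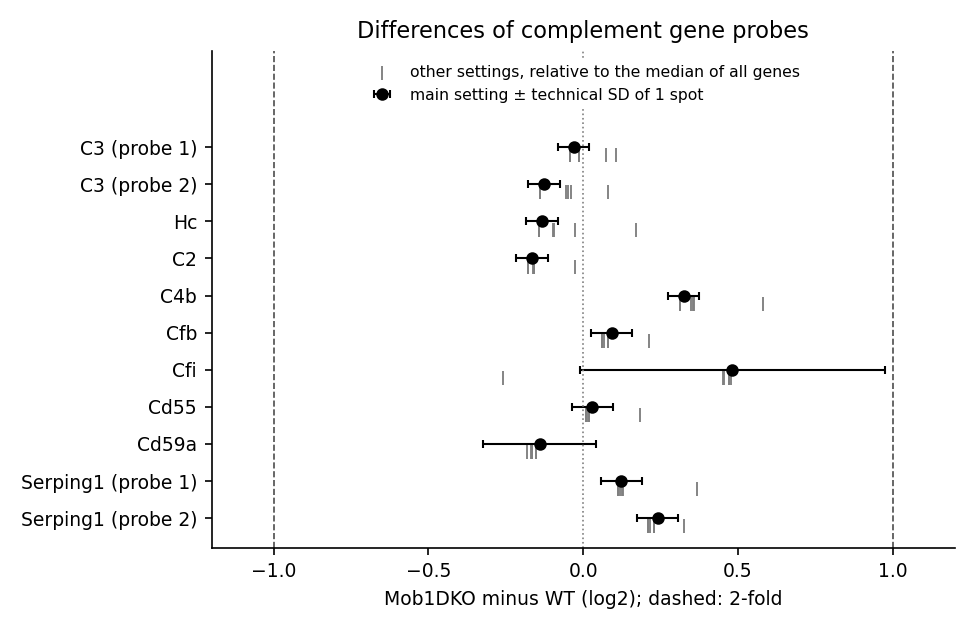
Mob1DKO minus WT difference (log2) of the 11 complement probes with the technical SD of a single-spot difference at that level (black), and the same difference relative to the median of all genes under other processing settings (grey ticks). All values lie inside the dashed 2-fold lines, C4b is the member farthest beyond its technical SD, and the Cfi ticks reach −0.26.

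The members' differences were recomputed under other processing settings. The 14 settings counted here include the main one and leave out the 1.5-fold threshold, which changes no difference. Relative to the median of all genes, C4b ranged from 0.31 to 0.58 over 14 settings, Serping1 from 0.11 to 0.37, Cfb from 0.06 to 0.21 and Cd55 from 0.01 to 0.18. C2 ranged from −0.18 to −0.025 and Cd59a from −0.18 to −0.15. Uniform scalings, filters on calls and the floor leave such relative values of bright genes as they are by construction, so the number of settings is no count of independent checks. Not taken relative to that median, C2 was 0.01 with the model-based background correction and Cd59a was 0.01 with housekeeping scaling. Relative to the median of all genes, C3 ranged from −0.09 to 0.11 and was above 0 in 2 of 14 settings. Hc ranged from −0.14 to 0.17 and was above 0 in 1, the model-based background correction. That correction gave the highest value of C3, Hc, C2, C4b, Cfb, Cd55 and Serping1. Its offset raises bright genes on the Mob1DKO array by construction, so these upper ends do not measure robustness.

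The rest of the complement system was followed in 6 lists of 51 genes, of which 49 were on the array and 28 were detected on at least 1 array. Of these, 1 was called lower and 0 were called higher, against the 6.70% of all genes given above. The 26 genes measured on both arrays had a median difference of 0.01, with 13 above 0 and 13 below.

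Among 6 measured genes of the classical route the median difference was 0.17 and 5 lay above 0. These genes include the C1r and C1s proteases that start the route. C1s2 had 2.38 in Mob1DKO against 2.20 in WT cells, and C1s1 2.33 in Mob1DKO against 2.18 in WT cells. The largest difference in the list, named after its value was seen, was that of C1ra, with 0.39 on its brighter probe and 0.29 on the other. C1ra and C1rb, like C1s1 and C1s2, are close copies, so these values may not be independent. Of the C1q subunit genes, which macrophages express strongly, C1qb differed by −0.15 at a faint level of −2.15 in Mob1DKO against −2.0 in WT cells, and C1qa was detected on neither array. C1qc was not counted as detected either: its mean signal was 86.7 in Mob1DKO against 2.97 in WT cells, but 1 of 10 Mob1DKO spots and 0 of 10 WT spots were above background, and the median spot signal was 3.81 in Mob1DKO against 2.95 in WT cells.

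In the lectin route, Mbl2 was the only called complement gene. It encodes a mannose-binding lectin that recognises microbial sugars. Its measured level was −6.39 in Mob1DKO, where it was not detected, against −1.58 in WT cells. It was at least 5.73-fold lower in Mob1DKO, taking the lowest detected level of that array as a floor. With the model-based background correction the Mbl2 difference was −1.54. The related Mbl1 had −2.89 in Mob1DKO against −2.83 in WT cells, and the collectin Colec11 differed by 0.19. The other 5 lectin route genes, among them the protease genes Masp1 and Masp2, were detected on neither array.

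In the alternative route, Cfhr2 differed by −0.55 on its brighter probe and −0.22 on the other. Cfd, the protease that activates factor B, was detected on neither array. Of the terminal components, C6 had 1.89 in Mob1DKO against 1.96 in WT cells, and C8g differed by −0.19 on its brighter probe and 0.07 on the other. C7 differed by 0.09 on its brighter probe. Its second probe was detected on the WT array only, and at least 3.07-fold lower on the Mob1DKO array. C8a, C8b and C9 were detected on neither array.

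Of the receptors, Itgam, a subunit of complement receptor 3, differed by −0.05 on the brightest of its 3 probes, which gave unlike differences. The C1q-binding protein gene C1qbp differed by 0.08. The C5a receptor gene C5ar2, named after its value was seen, was 1.39-fold higher on one probe and 1.31-fold higher on the other in Mob1DKO than in WT cells, below the 2-fold rule on both. Its difference was not the largest of the list: the 7 receptor genes measured on both arrays ran from −0.13 to 0.53. C3ar1 and C5ar1, the main receptors for C3a and C5a, were detected on neither array. Of the other regulators, Clu, the secreted inhibitor clusterin, had 7.49 in Mob1DKO against 7.72 in WT cells (−0.23), and Susd4 differed by −0.19. Of 5 regulators measured on both arrays 0 were called, against 2.68% of all genes measured on both, so this count does not set them apart. Their differences ran from −0.28 to 0.68, the highest for a faint gene with levels below 0 on both arrays.

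**Figure D4:**
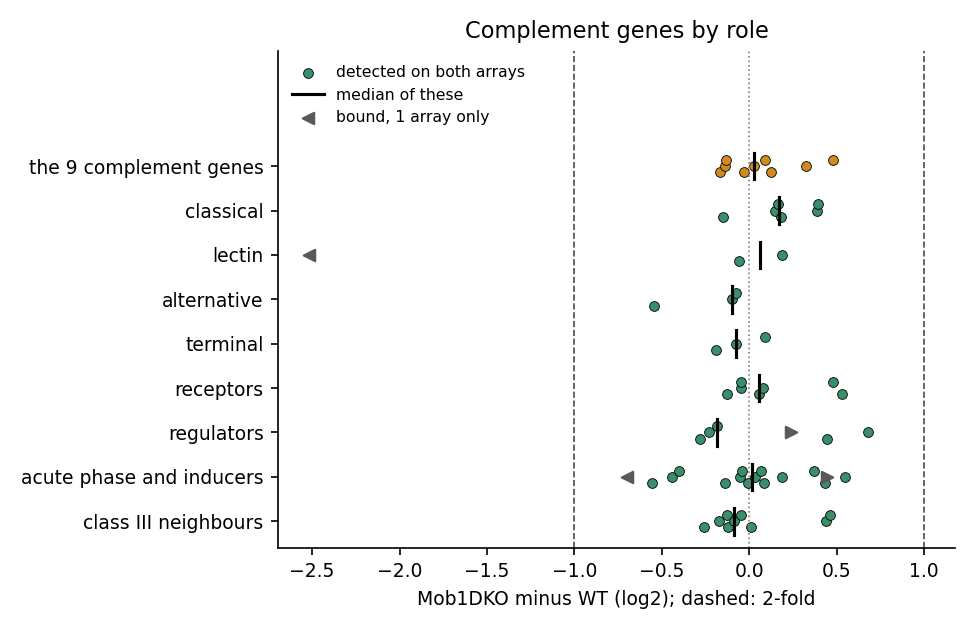
Mob1DKO minus WT difference (log2) of the 9 complement genes and of the listed genes by role, where each circle is a gene detected on both arrays, the bar is the median of these, and a triangle is the bound of a gene measured on 1 array only. Mbl2, in the lectin row, is the only complement gene beyond the dashed 2-fold lines, with a bound of −2.52.

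The genes that accompany complement in the acute phase response, and the factors that induce it were read as a further list of 17. Of these, 16 were detected and 1 was called higher and 0 lower, against 6.70% of all genes. The 14 genes measured on both arrays had 7 differences above 0 and a median of 0.01. Hp, the haemoglobin-binding protein haptoglobin, had 9.0 in Mob1DKO against 8.81 in WT cells. Nfkbia, the feedback inhibitor of NF-kB, had 7.60 in Mob1DKO against 7.74 in WT cells. The 1 called gene, the plasma protein gene Orm1, was detected on the Mob1DKO array only. Its level there was −3.01, and the bound was at least 1.36-fold higher than in WT, under 2-fold. With the model-based background correction the Orm1 difference was −0.15, though the offset of that setting moves faint genes down on the Mob1DKO array.

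The class III neighbours of C2, Cfb and C4b gave 0 called genes of 9, against 6.70% of all genes, with a median of −0.09. The brightest, the histone methyltransferase gene Ehmt2, differed by −0.17, and Nelfe, which encodes a subunit of negative elongation factor, by −0.13. In chromosomal order among the listed genes, Atf6b (0.47) and Tnxb (0.44) come before C4b (0.32) and Cyp21a1 (−0.26) after it. The Atf6b and Tnxb probes were faint, with levels below 0 on both arrays and technical SDs of 0.18 for Atf6b and 0.49 for Tnxb. Theirs were the largest differences of the list, in which 3 of 9 genes lay above 0.

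**Figure D5:**
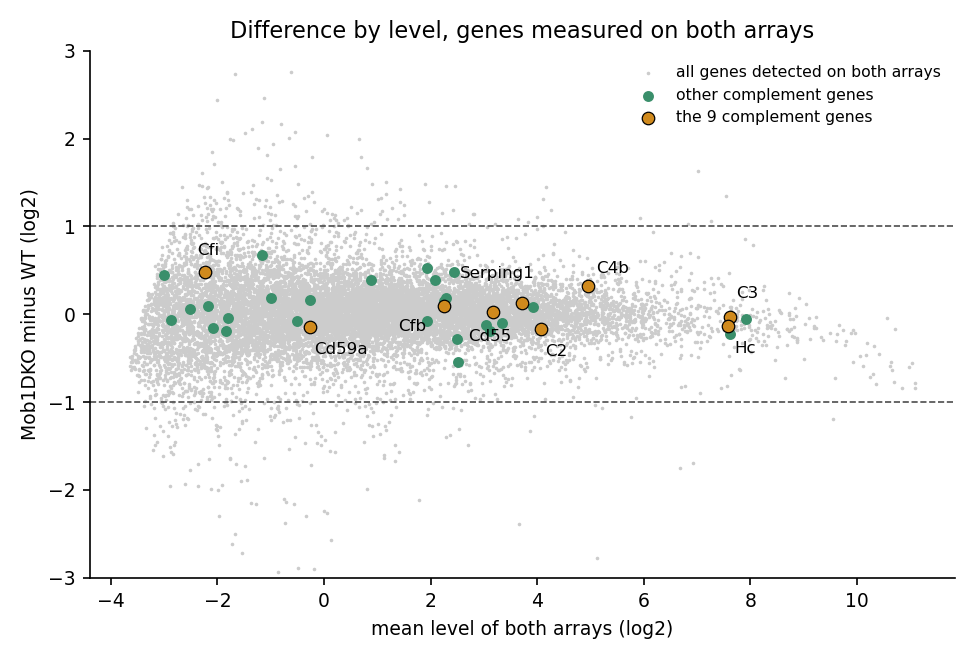
Mob1DKO minus WT difference (log2) against the mean level of both arrays for the 13866 genes detected on both (grey), with the other complement genes (green) and the 9 complement genes (orange, named). The plot leaves out 17 genes with a difference beyond ±3. The members lie within the body of genes of like level, and the spread of that body is wider at low levels, where Cfi lies.

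Cell type markers were read on the same arrays. The counts of called markers stand beside 6.70% of the 15099 genes detected on at least 1 array. All 8 epithelial markers, such as Epcam and Cdh1, were detected on both arrays with a median difference of 0.01. All 8 alveolar type 2 markers were detected, with a median of −0.25, and their summed linear level, in multiples of the array's 75th percentile, was 3976 in Mob1DKO against 5643 in WT cells. All 7 goblet cell markers were called lower, with a summed level of 66.9 in Mob1DKO against 284 in WT cells. Of the 4 club cell markers on the array 1 was called lower, with sums of 3330.4 in Mob1DKO against 5903 in WT cells. Scgb1a1, at 10.66 in Mob1DKO against 11.50 in WT cells, weighed most in these. Red cell markers were called lower for 4 of 5 genes, with sums of 1.30 in Mob1DKO against 13.9 in WT cells.

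Markers of other cell types that make complement transcripts or could be carried over were read in the same way. Against the 6.70% of all genes, 1 call in a list this short does not set that list apart. Macrophage markers summed to 21.1 in Mob1DKO against 24.6 in WT cells, with 4 of 7 genes on the array detected, 1 called higher (Ear2, faint) and Mrc1, Adgre1 and Siglecf detected on neither array. The liver list summed to 0.88 in Mob1DKO against 0.89 in WT cells, and Apoa1, Ttr and Fgb were detected on neither array. Fibroblast and mesothelial markers summed to 139 in Mob1DKO against 147 in WT cells, with all 8 detected and 1 called higher. Neutrophil markers summed to 276 in Mob1DKO against 229 in WT cells, with 2 of 5 called higher, S100a8 and S100a9, both detected in Mob1DKO cells only. Their levels there lay below the lowest detected level of the WT array, as did that of Ear2, so no fold can be given for these 3 genes. The neutrophil sum was nearly all Csf3r, with a level of 8.11 in Mob1DKO against 7.83 in WT cells. Lymphocyte markers summed to 5.71 in Mob1DKO against 6.43 in WT cells, with 3 of 6 detected and 1 called higher, the B cell gene Cd79a (at least 3.38-fold higher in Mob1DKO). Endothelial markers summed to 25.3 in Mob1DKO against 38.1 in WT cells, nearly all of it Kdr (4.63 in Mob1DKO against 5.23 in WT cells), with Cdh5, Tek and Cldn5 detected on neither array. The part of these cell type differences, and of sex, in the complement values was not tested.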

How the data were processed

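Total RNA of each sample was amplified, labelled with Cy3 and hybridised, per the labels' protocols. The deposited scanner files hold spot intensity values on a linear scale, extracted with Agilent Feature Extraction 10.7.1.1 per the file headers (9.5.1.1 in the submitters' processing notes). The processed signal is background-subtracted within the array. The scanner software's flags, other deposited values of 0 or 1, mark spots well above background. The deposited series table also holds intensity values, made by the authors in steps not given in the sources used here. Both columns had a median of 27.3 each and followed their own arrays at r = 0.9998 (Mob1DKO) and 0.9995 (WT) across probes, so its scale is linear and its sample labels hold.

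Replicate spots were averaged, and log2 was taken minus the 75th percentile over non-control probes. No spot was saturated. Probes were named through RefSeq accessions in a table of assembly GRCm38.p6, used for names and gene order only: 27235 of 55681 were named. A gene with several probes took the brightest well above background. Members are named in full. Of the other lists, called genes and the 2 brightest measured genes of each are named, and others are said to be named after their values were seen. The values of 1 such gene are not reported here. The members and lists were chosen with earlier results of these data known. Where 1 array was not well above background, a fold is a bound against the higher of the dim value and the array's lowest level well above background (−4.10 for Mob1DKO, −3.45 for WT). The background alternative used limma 3.58.1 (normexp, offset 50) on the median spot signal, since the files hold no mean signal. Calls were tested on simulated data, a copy of the WT array with even noise and changes planted in probes above background. This checks the code, and not the error of faint genes or the spread between samples. The number of arrays, 1 per group, limits the precision.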

Additional observations from a re-analysis of the deposited data

How the results depend on the processing

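The number of member genes called was 0 under 13 of 14 alternatives to the main setting, the 1.5-fold threshold among them. With no scaling, which shifts all genes by the brightness of the arrays (a median of 0.92 for all genes), it was 4 genes and 5 probes, and 13 other complement genes and 6323 of all genes were called (6149 higher, 174 lower). Without that shift, 1 other complement gene and 1011 of all genes were called (572 higher, 439 lower). Under normexp 272 of all genes were called (99 higher, 173 lower), the Orm1 difference of 1.14 turned to −0.15, and the Mbl2 difference was −1.54. Its offset, added before arrays of unequal brightness are scaled, moves faint genes down and bright genes up on the Mob1DKO array. Such changes are in part built into that setting. Counting only genes detected on both arrays gave 0 other complement genes and 372 of all genes. No filter on background gave 7 and 2015 (807 higher, 1208 lower), and a 1.5-fold threshold 3 and 2239. The split of all calls moved to 737 higher and 355 lower with housekeeping scaling, which shifts the median of all genes to 0.16, and to 294 higher and 386 lower with a floor. Faint probes such as Cfi are limited by signal over background. No paired analysis was possible because each group holds 1 array. Leaving out an array leaves no comparison.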

Other observations

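The 3 Itgam probes gave unlike differences. The brightest had 7.88 in Mob1DKO against 7.93 in WT cells, the second −0.10 in Mob1DKO against −0.46 in WT cells, and the third was detected on the Mob1DKO array only, at −2.70. The third probe was called higher, with a bound of at least 1.69-fold, under 2-fold. Itgb2, which encodes the partner subunit of complement receptor 3, had −2.49 in Mob1DKO against −2.55 in WT cells. Of the Cr2 probes, 1 differed by −0.05 and the other was detected on the WT array only. The 2 listed complement genes not matched to a probe were C4a and Cfhr3.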
